A study of Caenorhabditis elegans with 6 samples.

Results

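Small RNAs were compared between C. elegans that lack the germ granule proteins MEG-3 and MEG-4 and C. elegans that lack the nuclear Argonaute HRDE-1. The comparison used 4 of the 6 sequenced libraries of the series, 2 from meg-3(ax3055) meg-4(ax3052) and 2 from hrde-1(tm1200). The meg-3 meg-4 strain was labelled JH3745 and outcrossed. The remaining 2 libraries came from the triple mutant, which carries the hrde-1 allele tm1200 together with both meg alleles, and are given beside the others where they bear on a locus. All animals were whole worms at the young mother stage, synchronized by starvation and kept at 20 °C on HT115 bacteria with the L4440 vector. The labels do not say whether replicates came from separate cultures, so p-values measure the spread between these libraries. Neither strain is a wild type: each carries mutations the other lacks, and the meg-3 meg-4 strain alone was described as outcrossed.

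MEG-3 and MEG-4 are disordered proteins that condense with RNA and gather P granules, the RNA-rich bodies of the germ line that hold many small RNA factors. HRDE-1, an Argonaute of the germ line, binds 22G-RNAs, short antisense RNAs made by RNA-dependent RNA polymerases on an mRNA template, and takes them into the nucleus, where they direct heritable silencing. Libraries were made after 5′ polyphosphatase treatment of the RNA, a step that lets such triphosphorylated RNAs be cloned beside miRNAs and 21U-RNAs, the piRNAs of this worm. A value at a locus is therefore the amount of small RNA counted there, not the amount of its mRNA.

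The deposited tables list 42402 loci, of which 41759 matched the reference annotation. Libraries held 5628602 and 5115457 reads in meg-3 meg-4, 6780320 and 2384147 in the triple mutant, against 5450690 and 4604636 in hrde-1. Levels are in reads per 1000000 reads (RPM) after the 6 libraries were scaled together, and 6469 loci with a mean of at least 10 RPM were tested. A difference is the fitted log2 value of meg-3 meg-4 minus hrde-1, on log2(RPM + 1), which understates changes at low loci. A locus was called when limma's adjusted p over all tested loci was under 0.05. Because whole worms mix tissues and embryos, fewer cells of a type and less RNA per cell cannot be told apart.

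At the mutated genes the libraries followed their labels as far as this could be checked. Reads at meg-4 (listed as C36C9.1) were 0 in both meg-3 meg-4 libraries, against 6.97 and 8.01 RPM in hrde-1, which is at least 13.5-fold lower with 3 reads per library as the floor. At meg-3 (listed as gei-12) the levels were 0.338 and 0.602 RPM in meg-3 meg-4 and 7.55 and 4.52 RPM in hrde-1. Both loci lay under the filter on level and were not tested, and the triple mutant had 0 reads at each. The hrde-1 locus had 614 and 622 RPM in meg-3 meg-4 and 601 and 456 RPM in hrde-1, a difference of 0.24 (SE 0.33, limma adjusted p = 0.765). Counts over a whole gene do not tell whether reads fall in the deleted stretch, so this locus checks nothing for hrde-1.

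Small RNA levels differed between meg-3 meg-4 and hrde-1 at many loci. Of the loci tested, 16.4% were called, 454 higher (7.02%) and 607 lower (9.38%) in meg-3 meg-4. The falls were the larger changes: the median difference was −2.43 among lower loci and 1.74 among higher ones. A change of over 4-fold was seen at 373 lower and 150 higher loci, and of over 16-fold at 123 lower and 14 higher loci. Levels in the libraries of both strains did not overlap at any called locus. Over all tested loci, both meg-3 meg-4 libraries were above both hrde-1 libraries at 19.5% and below them at 24.1%. List counts under other filters on level can be set beside other totals. With a minimum mean of 1 RPM 796 loci were higher and 877 lower of 13914 tested. With no filter 700 were higher and 806 lower of 30542.

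**Figure D1:**
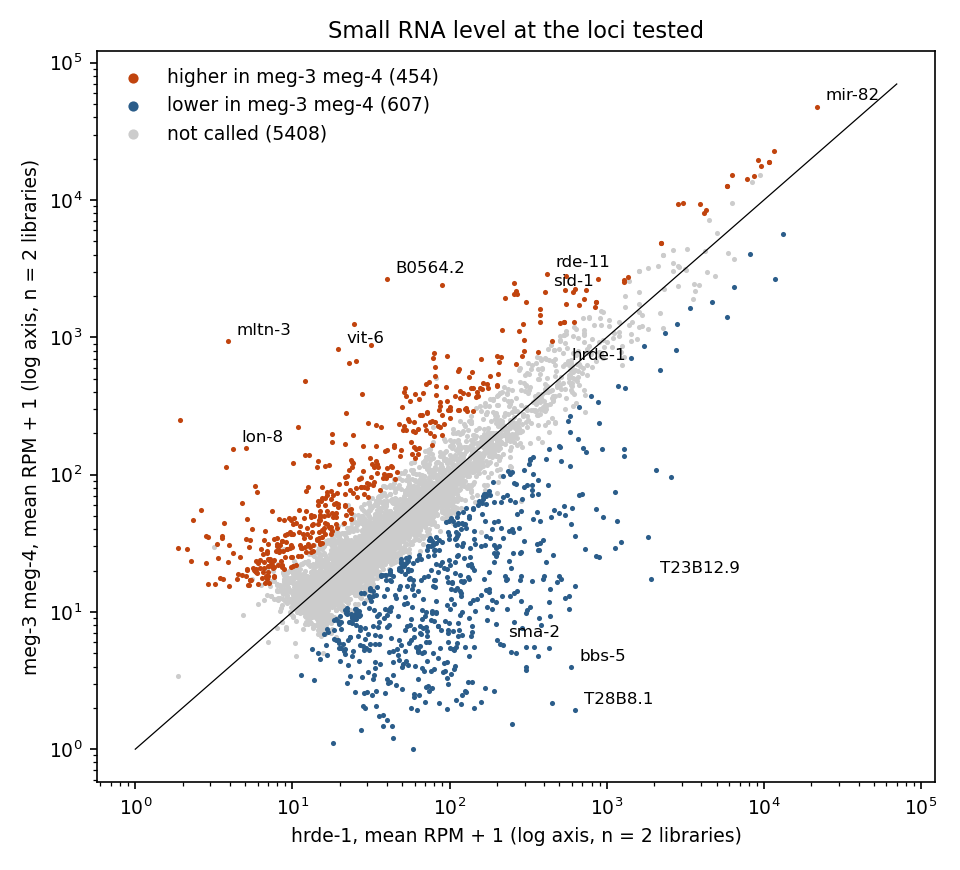
Mean small RNA level (RPM + 1, log axes, n = 2 libraries a strain) in meg-3 meg-4 on the vertical axis and hrde-1 on the horizontal axis, with each point 1 tested locus. The 454 loci called higher lie above the line of equal level and the 607 called lower lie below it, with lower loci spread farther from the line.

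The split between rises and falls depends on how libraries are scaled, and the strains differed in the share of their reads at miRNAs. These took 31.2% and 31.6% of reads in meg-3 meg-4, 32.1% and 28.6% in the triple mutant, against 18.2% and 19.5% in hrde-1. Protein-coding loci took 51.7% and 50.04% in meg-3 meg-4, against 65.9% and 62.0% in hrde-1. Neither share overlapped between meg-3 meg-4 and hrde-1, although 2 libraries against 2 cannot give a two-sided exact permutation p below 0.333. The median of all tested loci was −0.15. Scaling to library totals moved it to −0.34, with 378 higher and 710 lower loci, and scaling to miRNA reads to −1.06, with 168 higher and 2897 lower. Differences below can be read against that median.

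The genes rde-11 and sid-1, which the title of the series names, act in RNA interference, and both had more small RNA in meg-3 meg-4 than in hrde-1. RDE-11 acts in the amplification of secondary siRNAs, and SID-1 is the channel that imports double-stranded RNA. At rde-11 (WBGene00023421, chromosome IV) the levels were 2526 and 3304 RPM in meg-3 meg-4, 694 and 765 in the triple mutant, against 356 and 477 in hrde-1. At sid-1 (WBGene00004795, chromosome V) they were 1603 and 2686 RPM in meg-3 meg-4, 711 and 641 in the triple mutant, against 351 and 450 in hrde-1. At both genes the meg-3 meg-4 libraries stood above all others and the hrde-1 libraries below all others.

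The difference was 2.81 at rde-11 (SE 0.32, limma adjusted p = 2.3e-05) and 2.38 at sid-1 (SE 0.34, limma adjusted p = 1.9e-04). Relative to the median of all loci these are 2.96 and 2.53, and with scaling to miRNA reads they are 2.94 and 2.52. Over 17 settings rde-11 ranged from 1.88 to 3.101 and sid-1 from 1.46 to 2.85, and both were called in each of them. The authors' deposited table for hrde-1 against the wild type strain N2 gives −0.16 for rde-11, with an adjusted p of 0.777, and −0.25 for sid-1, with an adjusted p of 0.612. That table uses the same hrde-1 libraries. To place meg-3 meg-4 against N2, the authors' deposited table for the triple mutant against N2 was taken and the one for the triple mutant against meg-3 meg-4 subtracted. This difference of the authors' deposited tables, which has no test, came to 2.65 for rde-11 and 2.18 for sid-1. N2 libraries were not used here.

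Among 22 tested genes of RNAi amplification and the mutator complex, 2 rose and 1 fell, against 7.02% and 9.38% of all loci. Besides rde-11, small RNAs rose at rrf-2, a paralogue of the RNA-dependent RNA polymerase genes, with 223 and 338 RPM in meg-3 meg-4 and 54.6 and 87.5 in hrde-1 (difference 1.97, SE 0.37, limma adjusted p = 0.0016). They fell at ekl-6, with 69.5 and 37.1 RPM in meg-3 meg-4 and 250 and 318 in hrde-1 (−2.45, SE 0.38). The authors' deposited table for hrde-1 against N2 gives −1.62 at rrf-2 and 2.35 at ekl-6. By difference of the authors' deposited tables, meg-3 meg-4 over N2 comes to 0.37 and −0.07. The median of the 22 genes was −0.14, near that of all loci. With scaling to miRNA reads 2 rose and 9 fell, and the median of −1.06 again equalled that of all loci. Of 17 tested genes of double-stranded RNA uptake and processing, sid-1 was the one called.

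Calls at other genes of the small RNA machinery can be set beside the 7.02% higher and 9.38% lower of all loci. Limma, edgeR and DESeq2 each called 0 of 12 tested Argonautes, 0 of 34 factors of nuclear RNAi and chromatin silencing and 0 of 15 piRNA pathway factors, with 1, 2 and 1 of them at an unadjusted limma p under 0.05. The most abundant members were C14B1.7 (0.04) and hrde-1 of the Argonautes, nrde-2 (−0.79) of the nuclear factors, and parn-1 (0.28) and prg-1, the piRNA Argonaute (−0.63). Of 30 tested germ granule factors 0 rose and 2 fell, nos-2, a Nanos-related translational regulator, and F58G11.3 (later named mip-2), whose product binds MEG-3. With a minimum mean of 1 RPM 5 of 35 fell and with no filter 3 of 35. At nos-2 the levels were 7.26 and 7.83 RPM in meg-3 meg-4 and 18.3 and 18.7 in hrde-1 (−1.19, SE 0.35, limma adjusted p = 0.032). At F58G11.3 they were 144 and 62.2 RPM in meg-3 meg-4 and 312 and 189 in hrde-1 (−1.35, SE 0.42, limma adjusted p = 0.044). Both calls were narrow. The one at nos-2 ended without meg-3 meg-4 replicate 1 or without either hrde-1 library (−1.05, −1.01 and −1.19), and with DESeq2 (−1.18) or no filter. The one at F58G11.3 ended without meg-3 meg-4 replicate 2 or hrde-1 replicate 1 (−0.75 and −0.78), and with scaling to totals (−1.54) or edgeR (−1.28).

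The 12 largest rises among loci of at least 50 RPM fell into 2 kinds by the authors' values against the wild type. Those values reuse the hrde-1 and meg-3 meg-4 libraries by which the loci were picked, so they describe the loci and are no separate support. At mltn-3, named for its likeness to the moulting gene mlt-10, the levels were 1022 and 855 RPM in meg-3 meg-4, 1194 and 1178 in the triple mutant, against 2.90 and 2.88 in hrde-1 (7.91, SE 0.33, limma adjusted p = 1.5e-08). At pqn-24, which encodes a glutamine- and asparagine-rich protein, they were 122 and 375 RPM in meg-3 meg-4, 6.87 and 73.1 in the triple mutant, against 0.436 and 1.44 in hrde-1 (6.84, SE 0.78). At B0564.2, the neighbour of rde-11, they were 2279 and 3030 RPM in meg-3 meg-4, 89.5 and 75.0 in the triple mutant, against 34.3 and 43.3 in hrde-1 (6.05, SE 0.34). The triple mutant was as high as meg-3 meg-4 at mltn-3, lay between the strains at pqn-24 and was close to hrde-1 at B0564.2.

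These 3 loci and Y119C1B.1, H25P19.1, vit-6 and vit-2 were the first kind. The authors' deposited table for hrde-1 against N2 gives −0.72 to 1.18 at these 7 loci, and by difference of the authors' deposited tables meg-3 meg-4 over N2 was 4.65 to 9.303. At H25P19.1 the levels were 2179 and 2650 RPM in meg-3 meg-4, 100 and 81.1 in the triple mutant, against 85.1 and 92.2 in hrde-1 (4.75, SE 0.33). At Y119C1B.1 they were 82.5 and 144 RPM in meg-3 meg-4, 14.1 and 45.9 in the triple mutant, against 2.03 and 3.49 in hrde-1 (4.90, SE 0.48). Its neighbour Y119C1B.10 rose too (2.29, SE 0.37).

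The second kind held ads-1, lon-8, K09B11.4, C18H2.1 (later named lido-18) and Y55B1BR.5. At ads-1, which encodes an ether lipid synthesis enzyme, the levels were 1206 and 1285 RPM in meg-3 meg-4, 69.0 and 72.2 in the triple mutant, against 24.97 and 22.6 in hrde-1 (5.65, SE 0.32). At lon-8, a regulator of body length, they were 144 and 163.05 RPM in meg-3 meg-4, 2.17 and 1.88 in the triple mutant, against 2.32 and 4.108 in hrde-1 (5.23, SE 0.36). The other 3 had 566 to 969 RPM in meg-3 meg-4 and 21.1 to 34.1 RPM in hrde-1, with differences of 4.72 to 4.82. At all 5 loci both strains that lack HRDE-1 were low. The authors' deposited table for hrde-1 against N2 gives −5.83 to −3.79 at them, and by difference of the authors' deposited tables meg-3 meg-4 over N2 lay between −0.21 and 1.11.

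**Figure D2:**
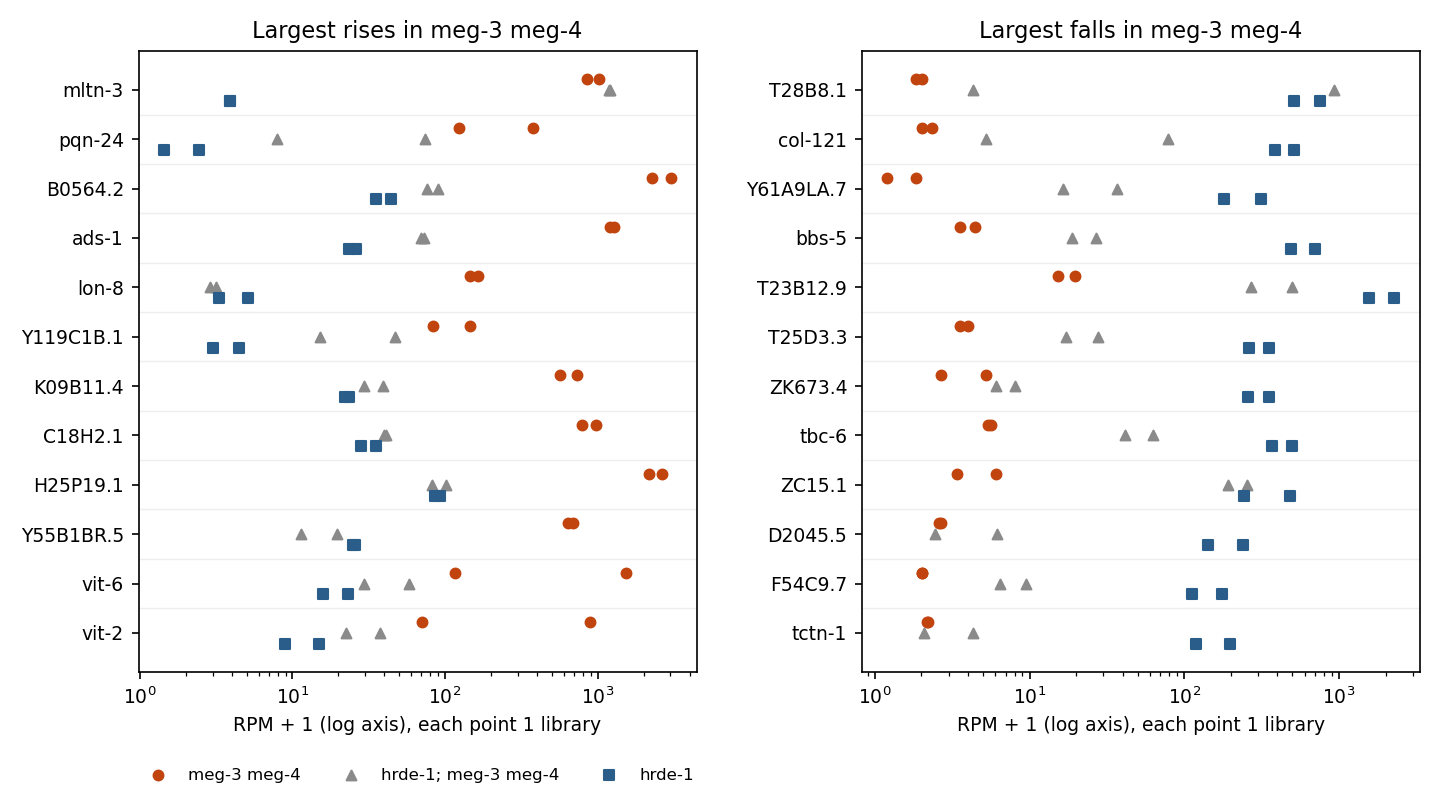
Small RNA level (RPM + 1, log axis) in each library of meg-3 meg-4, the triple mutant and hrde-1 at the 12 largest rises (left) and the 12 largest falls (right), with each point 1 library. The triple mutant stands with meg-3 meg-4 at mltn-3, with hrde-1 at lon-8 and H25P19.1, and between them at many of the falls.

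Yolk protein genes formed a group of rises whose size rested on 1 library. The vitellogenins encode yolk proteins made in the intestine, and 5 of the 6 tested members rose, against 7.02% of all loci. At vit-6 the levels were 115.6 and 1521 RPM in meg-3 meg-4, 57.3 and 28.6 in the triple mutant, against 14.96 and 21.98 in hrde-1 (4.46, SE 0.82, limma adjusted p = 0.0013). At vit-2 they were 69.9 and 896 RPM in meg-3 meg-4, 36.5 and 21.6 in the triple mutant, against 7.99 and 13.97 in hrde-1 (4.44, SE 0.80, limma adjusted p = 0.0012). Over the list, the summed level was 274 and 3231 RPM in meg-3 meg-4, 151 and 79.7 in the triple mutant, against 38.8 and 55.05 in hrde-1. Both meg-3 meg-4 libraries were higher, replicate 2 far more so. Without replicate 2 the differences at vit-6 and vit-2 were 2.61 each, and without replicate 1 they were 6.41 and 6.37.

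Other tissue and stage lists were measured beside these. Their calls can be set beside the 7.02% higher and 9.38% lower of all loci, shares at which a short list may hold 0 calls. The mir-35 family, miRNAs of oocytes and embryos, summed to 4948 and 13606 RPM in meg-3 meg-4, 9764 and 10911 in the triple mutant, against 8756 and 8359 in hrde-1. Replicate 1 of meg-3 meg-4 was the lowest library and replicate 2 the highest, with 0 of 8 members called by limma, edgeR or DESeq2 and 0 at an unadjusted limma p under 0.05. Its most abundant members stood at −0.17 (mir-35) and 0.04 (mir-39). Of 4 muscle sarcomere genes tested of 25 listed, unc-54, the body wall myosin heavy chain, rose (3.01, SE 0.73) and unc-87, a calponin-like thin filament protein, fell (−4.04, SE 0.40). More members rose when those of low level were tested. With a minimum mean of 1 RPM 11 of 20 were higher and 1 lower (median 1.78), against 796 and 877 of all 13914 loci. With no filter the counts were 10 and 1 of 25, against 700 and 806 of all 30542. A fit of the 2 strains alone gave 4 higher and 1 lower of 8, against 475 and 655 of all 6761. At unc-54 the levels were 7.26 and 62.0 RPM in meg-3 meg-4 and 2.03 and 1.64 in hrde-1, and without meg-3 meg-4 replicate 1 the difference was 4.57. Without replicate 2 unc-54 no longer passed the filter on level and was not tested. Replicate 1 stood above both hrde-1 libraries at unc-54, far less so than replicate 2. At unc-87 the levels were 9.11 and 15.1 RPM in meg-3 meg-4 and 167 and 262 in hrde-1. The authors' deposited table for hrde-1 against N2 gives 7.37 at unc-87 and −2.79 at unc-54. By difference of the authors' deposited tables meg-3 meg-4 over N2 was 3.23 at unc-87 and 1.51 at unc-54. By these values both strains lay above N2 at unc-87 and on opposite sides of it at unc-54. The summed level of all 25 was 172 and 442 RPM in meg-3 meg-4 and 306 and 377 in hrde-1. Of 33 tested germ line and meiosis genes, 24 oocyte genes and 5 spermatogenesis genes limma, edgeR and DESeq2 each called 0, with 0, 0 and 1 at an unadjusted limma p under 0.05. Their most abundant members were htp-1 (−0.16) and chk-2 (−0.04), cbd-1 (−0.37) and rme-2, the yolk receptor (−0.74), and spe-41 (0.87) and spe-39 (−0.14), none of them called. The 1 tested major sperm protein gene, msp-50, stood at −0.57 with no call. The part that stage or tissue makeup has in the differences was not tested.

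The 12 largest falls had 0.201 to 18.7 RPM in meg-3 meg-4 and over 100 RPM in each hrde-1 library. T28B8.1 had 0.844 and 1.00 RPM in meg-3 meg-4, 933 and 3.28 in the triple mutant, against 509 and 752 in hrde-1 (−8.33, SE 1.54, limma adjusted p = 0.0015). The cuticle collagen gene col-121 had 1.35 and 1.00 RPM in meg-3 meg-4, 77.5 and 4.22 in the triple mutant, against 384 and 508 in hrde-1 (−7.67, SE 0.82). Y61A9LA.7 had 0.844 and 0.201 RPM in meg-3 meg-4, 15.4 and 35.6 in the triple mutant, against 181 and 314 in hrde-1 (−7.33, SE 0.42). Both meg-3 meg-4 libraries were close to 0 at these 3 loci, and at T28B8.1 the triple mutant libraries disagreed with each other.

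As with the rises, the authors' values against N2, from the same hrde-1 and meg-3 meg-4 libraries, divided the falls. The authors' deposited table for hrde-1 against N2 gives 3.91 to 9.86 at T28B8.1, col-121, Y61A9LA.7, ZK673.4, tbc-6, ZC15.1, D2045.5, F54C9.7 and tctn-1. At these 9 loci meg-3 meg-4 over N2, by difference of the authors' deposited tables, was −3.59 to 1.33. At bbs-5, T23B12.9 and T25D3.3 the authors' deposited table for hrde-1 against N2 gives 1.29 to 1.84, while the difference of the authors' deposited tables gives −6.38 to −5.02 for meg-3 meg-4 over N2. The plot of values against N2 shows these 3 with the wild type nearer to hrde-1.

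**Figure D3:**
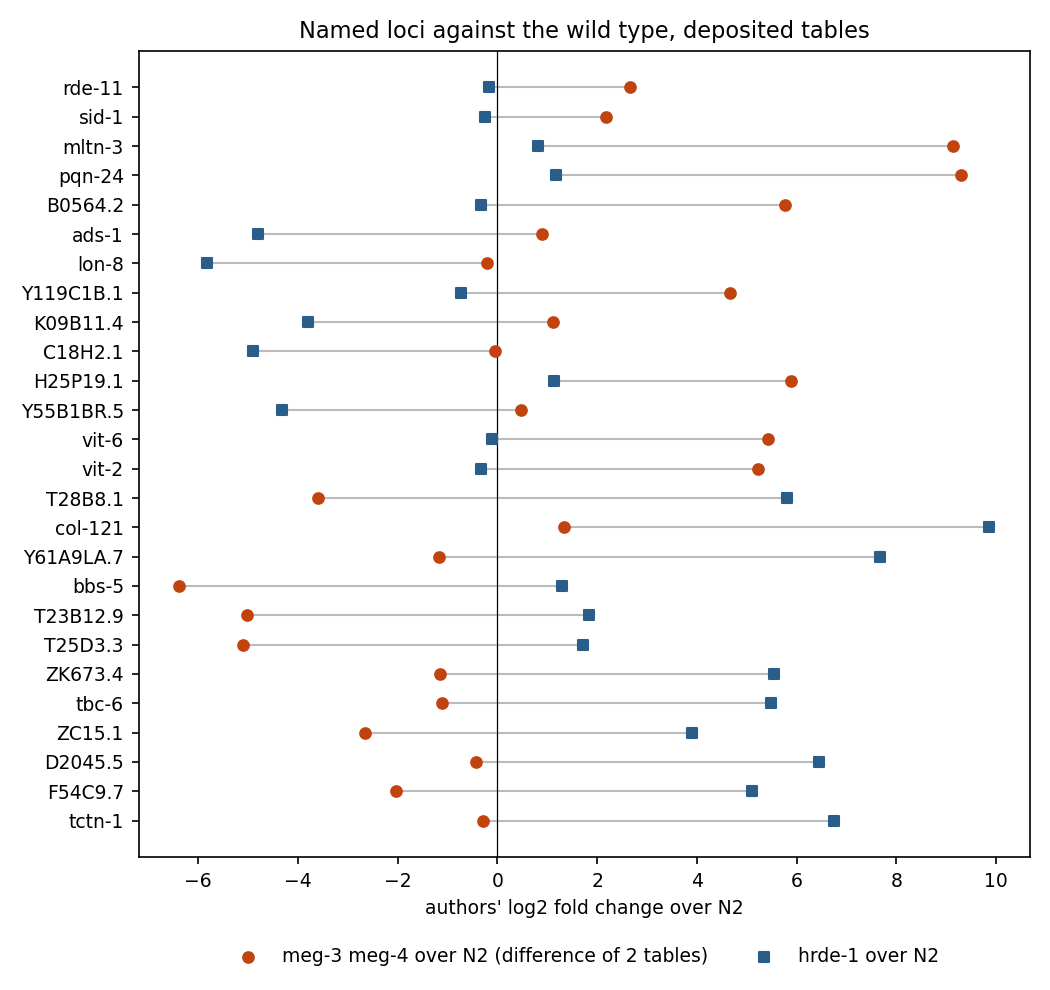
The authors' deposited log2 fold changes over the wild type N2 at rde-11, sid-1, the 12 largest rises and the 12 largest falls, for meg-3 meg-4 (circles, a difference of 2 deposited tables with no test) and hrde-1 (squares). At ads-1, lon-8, K09B11.4, C18H2.1 and Y55B1BR.5 hrde-1 is the strain far from 0, and at bbs-5, T23B12.9 and T25D3.3 it is meg-3 meg-4.

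The locus bbs-5 (WBGene00010974, chromosome III) encodes a subunit of the BBSome, a complex that moves cargo in cilia. Its levels were 2.53 and 3.41 RPM in meg-3 meg-4, 17.7 and 25.8 in the triple mutant, against 490 and 699 in hrde-1 (−7.22, SE 0.34, limma adjusted p = 4.1e-08). T23B12.9, which did not match the reference, was the most abundant of the 12, with 14.2 and 18.7 RPM in meg-3 meg-4, 270 and 493 in the triple mutant, against 1566 and 2278 in hrde-1 (−6.77, SE 0.38). The triple mutant lay between the strains at both loci. At tctn-1, which encodes a tectonic protein at the base of the cilium, the levels were 1.18 and 1.21 RPM in meg-3 meg-4, 1.08 and 3.28 in the triple mutant, against 117 and 196 in hrde-1 (−6.12, SE 0.44). There the triple mutant was as low as meg-3 meg-4.

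Small RNAs at further cilium genes were lower in meg-3 meg-4. The list of these genes was drawn up after bbs-5 and tctn-1 had been seen among the falls, so its counts describe and support nothing. Of 58 members 15 passed the filter on level, with a median of −3.05. Of these 11 were lower and 0 higher, against 9.38% and 7.02% of all loci. With no filter 55 could be tested, 16 were lower, 0 higher, and the median was −0.15. At dyf-3, an intraflagellar transport gene, the levels were 8.78 and 15.5 RPM in meg-3 meg-4, 24.6 and 30.0 in the triple mutant, against 462 and 690 in hrde-1 (−5.48, SE 0.37). At ift-20, another such gene, they were 55.2 and 53.0 RPM in meg-3 meg-4, 718 and 543 in the triple mutant, against 374 and 552 in hrde-1 (−3.05, SE 0.35). At bbs-4, a second BBSome subunit, they were 22.95 and 21.7 RPM in meg-3 meg-4, 281 and 316 in the triple mutant, against 183 and 294 in hrde-1 (−3.32, SE 0.35).

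The triple mutant thus did not follow 1 rule within the list: it was low at dyf-3 and tctn-1 and high at ift-20 and bbs-4. Further falls were at dyf-17 (−5.38), arl-13, a ciliary GTPase (−4.02), klp-20, a kinesin-II motor subunit (−3.26), and at the transition zone genes mks-1 (−2.97), nphp-1 (−2.63) and mksr-2 (−1.40). These members were named after their values had been seen. The call at mksr-2 ended without hrde-1 replicate 2 (−1.12). At arl-13 the meg-3 meg-4 libraries differed from each other, with 88.9 and 11.2 RPM, against 459 and 629 in hrde-1. Without meg-3 meg-4 replicate 1 the difference at arl-13 was −5.36 and without replicate 2 it was −2.58. The authors' deposited table for hrde-1 against N2 gives 7.03 at ift-20, 5.06 at dyf-17, 2.26 at bbs-4 and −0.75 at mks-1. By difference of the authors' deposited tables, meg-3 meg-4 over N2 was 3.95, −0.49, −1.15 and −3.95 in that order. By these values both strains lay above N2 at ift-20 and below it at mks-1. The place of the wild type thus differed within the list as well.

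Of 6 tested genes of transforming growth factor beta signalling and body size, 4 fell and 1 rose, where 9.38% of all loci were lower and 7.02% higher. Members high in hrde-1 alone can pass the filter through that strain, and with a minimum mean of 1 RPM 4 of 13 were lower and 2 higher (median −0.36), with no filter 4 and 2 of 18 (median −0.13). The falls were at sma-2, sma-3 and sma-4, the Smad genes of the body size pathway, and at daf-3, a Smad of the dauer pathway. The levels at sma-2 were 4.72 and 5.02 RPM in meg-3 meg-4, 16.6 and 4.69 in the triple mutant, against 171 and 245 in hrde-1 (−5.13, SE 0.45). Those at sma-4 were 6.92 and 4.62 RPM in meg-3 meg-4, 7.77 and 53.0 in the triple mutant, against 123 and 115 in hrde-1 (−4.17, SE 0.60). Those at sma-3 were 13.8 and 21.5 RPM in meg-3 meg-4, 29.3 and 27.7 in the triple mutant, against 99.6 and 133 in hrde-1 (−2.67, SE 0.33). All meg-3 meg-4 libraries were below all hrde-1 libraries at the 3 genes. At daf-3 the fall was −1.37 (SE 0.34), a call that ended without meg-3 meg-4 replicate 1 or without either hrde-1 library (−0.94, −1.33 and −1.21). The rise was lon-8, described above, so the body size genes moved in both directions. The authors' deposited table for hrde-1 against N2, which uses the same hrde-1 libraries, gives 6.75 at sma-2, 5.03 at sma-4 and 1.80 at sma-3. By difference of the authors' deposited tables, meg-3 meg-4 over N2 was 1.35, 0.63 and −0.90 in that order.

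Cuticle collagens passed the filter at 9 of 174 loci, of which 6 fell and 0 rose, against 9.38% and 7.02% of all loci. At col-38 the levels were 4.22 and 10.2 RPM in meg-3 meg-4 and 168 and 222 in hrde-1 (−4.67, SE 0.38). At col-111 they were 25.1 and 30.9 RPM in meg-3 meg-4, 1420 and 134 in the triple mutant, against 857 and 1393 in hrde-1 (−5.24, SE 0.75). With a minimum mean of 1 RPM 10 of 44 were lower and 7 higher, with a median of 0.65, and with no filter 11 of 142 were lower and 4 higher, with a median of 0.02. Falls at neuronal and receptor genes included egl-21, a carboxypeptidase that processes neuropeptides, at 4.72 and 5.82 RPM in meg-3 meg-4 and 150 and 246 in hrde-1 (−4.95, SE 0.36). The chemoreceptor gene sru-17 had 0.844 and 1.41 RPM in meg-3 meg-4 and 98.9 and 136 in hrde-1 (−5.80, SE 0.34). In the other direction, srh-171 had 45.7 and 63.1 RPM in meg-3 meg-4 and 1.02 and 2.26 in hrde-1 (4.42, SE 0.43). Of 14 tested chemoreceptor genes of 1355, 5 fell and 1 rose, against 9.38% and 7.02% of all loci. With a minimum mean of 1 RPM 9 of 78 were lower and 4 higher (median 0.05), against 877 and 796 of all 13914 loci tested. With no filter 9 were lower and 6 higher of 790, against 806 and 700 of all 30542.

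**Figure D4:**
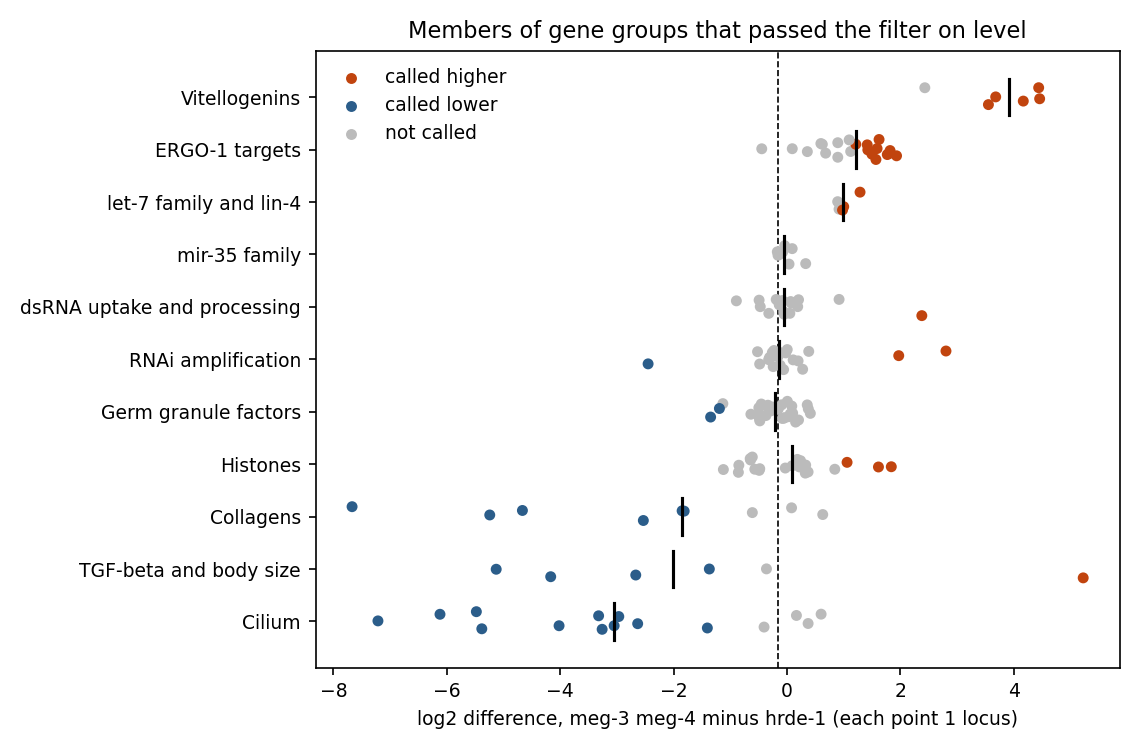
Log2 difference (meg-3 meg-4 minus hrde-1) at each tested member of 11 gene groups, with each point 1 locus, solid bars at group medians and the dashed line at the median of all loci (−0.15). ERGO-1 targets and vitellogenins lie right of the line, germ granule factors lie around it, and the cilium group, drawn up after the values were seen, lies mostly left of it.

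Loci targeted by other small RNA pathways were compared next, with the members listed from memory. HRDE-1 targets are genes silenced through the nuclear pathway in the germ line. Of the 11 tested, 3 had more small RNA in meg-3 meg-4 and 1 had less, against 7.02% and 9.38% of all loci. At F15D4.5 the levels were 1842 and 2325 RPM in meg-3 meg-4, 322 and 261 in the triple mutant, against 263 and 273 in hrde-1 (2.94, SE 0.32, limma adjusted p = 1.6e-05). At C38D9.2 they were 504 and 537 RPM in meg-3 meg-4, 63.8 and 79.7 in the triple mutant, against 89.9 and 68.6 in hrde-1 (2.71, SE 0.34). Both strains without HRDE-1 were low at these 2 loci. The authors' deposited table for hrde-1 against N2 gives −3.38 at F15D4.5 and −3.40 at C38D9.2, and by difference of the authors' deposited tables meg-3 meg-4 over N2 was −0.42 and −0.72. The third rise, E01G4.5 (1.57, SE 0.50), lost its call without meg-3 meg-4 replicate 2 or hrde-1 replicate 2 (0.73 and 1.11), and when libraries were scaled to totals (1.38) or miRNA reads (0.65). With scaling to miRNA reads the list had 2 rises and 5 falls. The fall at C18D4.6 (−1.14, SE 0.34) ended without meg-3 meg-4 replicate 1 or either hrde-1 library (−0.69, −1.04 and −1.03), and also with DESeq2 (−0.98).

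ERGO-1 is the Argonaute of 26G-RNAs that trigger 22G-RNA production at duplicated genes, pseudogenes and long non-coding RNAs. Of 21 tested target loci 11 rose and 0 fell, against 7.02% and 9.38% of all loci, with a median of 1.22. At the pseudogene W04B5.1 the levels were 1391 and 3052 RPM in meg-3 meg-4, 2005 and 1914 in the triple mutant, against 473 and 613 in hrde-1 (1.93, SE 0.37, limma adjusted p = 0.0020). At K02E2.6 they were 1773 and 2488 RPM in meg-3 meg-4, 2016 and 1614 in the triple mutant, against 465 and 759 in hrde-1 (1.82, SE 0.34). At the lincRNA H09G03.1 they were 350 and 394 RPM in meg-3 meg-4, 354 and 343 in the triple mutant, against 88.0 and 127 in hrde-1 (1.80, SE 0.34). The triple mutant libraries overlapped those of meg-3 meg-4 at W04B5.1, K02E2.6 and H09G03.1. With scaling to miRNA reads 5 of 21 rose and the median was 0.34, against −1.06 over all loci. E01G4.5 is in both lists, with 108 and 351 RPM in meg-3 meg-4, 106.99 and 138 in the triple mutant, against 89.4 and 47.2 in hrde-1, and there too the triple mutant overlapped meg-3 meg-4.

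Calls were also counted by annotation class, with no test of the difference between classes. Of 32 tested lincRNAs 19 rose and 3 fell, and of 114 loci named as miRNAs 26 rose and 1 fell. Of 127 loci of the class ncRNA 45 rose and 11 fell (median 0.65), so more rises than falls were not particular to lincRNAs and miRNAs. Of 5493 protein-coding loci 332 rose and 512 fell. Over all tested loci 7.02% were higher and 9.38% lower. At linc-22 the levels were 10202 and 8629 RPM in meg-3 meg-4, 9083 and 5756 in the triple mutant, against 2228 and 3439 in hrde-1 (1.76, SE 0.31). At linc-15 they were 400 and 159 RPM in meg-3 meg-4, 103 and 48.3 in the triple mutant, against 14.96 and 27.1 in hrde-1 (3.58, SE 0.48). linc-44 was 1 of the 3 that fell (−1.65, SE 0.35), a call that ended without hrde-1 replicate 2 (−1.38). These lincRNAs were named after their values had been seen. With scaling to miRNA reads the lincRNA counts were 5 higher and 9 lower of 33, against 168 and 2897 of all 6701 loci tested. The lincRNA median was then 0.41, against −1.06 over all loci.

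The miRNA rises stand beside the miRNA share of reads given above, which was higher in meg-3 meg-4. Their number rested on single libraries: in place of 26 it was 61 without meg-3 meg-4 replicate 1, 13 without meg-3 meg-4 replicate 2, 17 without hrde-1 replicate 1 and 46 without hrde-1 replicate 2. The most abundant locus was mir-82, of the bantam-related mir-58 family, with 48935 and 46993 RPM in meg-3 meg-4, 69671 and 48259 in the triple mutant, against 19941 and 23697 in hrde-1 (1.14, SE 0.22, limma adjusted p = 0.0022). At mir-246 the levels were 8987 and 10154 RPM in meg-3 meg-4, 11549 and 8864 in the triple mutant, against 2526 and 3604 in hrde-1 (1.66, SE 0.28). The triple mutant stood with meg-3 meg-4 or above it at both. Of the let-7 family and lin-4, which time larval development, 3 of 5 rose: mir-237 (1.29), let-7 (1.00) and mir-84 (0.98). With scaling to miRNA reads mir-82 stood at 0.22 and let-7 at 0.08, neither called, and 4 miRNA loci rose and 5 fell. That scaling makes the summed miRNA level equal in all libraries, so it cannot show a change of miRNAs as a class. The calls at let-7 and mir-84 also ended without meg-3 meg-4 replicate 2 (0.97 and 0.96) or hrde-1 replicate 1 (0.90 and 1.02). Those at mir-82, let-7 and mir-84 were not made with a minimum mean of 1 RPM or with no filter.

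The 21U-RNAs were low and mostly without a call. Of 13407 loci 444 were tested, with a median of −0.31. Of these 39 fell (8.78%) and 4 rose (0.90%), against 9.38% and 7.02% of all loci, so the share of falls was near that of all loci. The summed level of all 13407 was 24422 and 29660 RPM in meg-3 meg-4, 40724 and 34069 in the triple mutant, against 28131 and 39827 in hrde-1. The strains thus overlapped. At 21ur-1242 the levels were 10.29 and 6.43 RPM in meg-3 meg-4, 36.9 and 22.03 in the triple mutant, against 53.7 and 38.6 in hrde-1 (−2.35, SE 0.36). The number of falls moved between 6 and 50 when 1 library was left out, as given with the other settings.

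The X chromosome had more rises than falls and the autosomes more falls than rises, a balance that on X turned with scaling to miRNA reads. Of 308 tested loci on X 87 rose and 10 fell (28.2% and 3.25%), with a median of 0.61. The autosomes had 357 rises and 574 falls among 6076 loci. Chromosome V was the exception among them, with 91 rises and 85 falls of 904 loci. Protein-coding loci alone gave 26.4% higher and 3.96% lower on X, against 4.09% to 9.03% higher and 8.40% to 9.87% lower on each autosome. At C41A3.1 (later named pks-1, a polyketide synthase gene) on X the levels were 580 and 876 RPM in meg-3 meg-4, 408 and 405 in the triple mutant, against 173 and 229 in hrde-1 (1.84, SE 0.35). At F41G4.7 on X they were 333 and 514 RPM in meg-3 meg-4, 31.99 and 9.84 in the triple mutant, against 45.01 and 56.5 in hrde-1 (3.01, SE 0.46). The cadherin gene cdh-9 on X was among the falls, with 0.338 and 0.602 RPM in meg-3 meg-4, 0.361 and 0 in the triple mutant, against 31.7 and 41.3 in hrde-1 (−4.67, SE 0.58). These 3 were named after their values had been seen.

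The direction of the X counts depends on scaling: with miRNA reads 30 of 304 X loci rose and 84 fell, against 135 and 2771 on the autosomes. The X median was then −0.32, against −1.06 over all loci. Leaving out 1 library at a time gave 62 to 111 rises on X. Falls on X came to 38 of 291 without meg-3 meg-4 replicate 2, 2 of 304 without meg-3 meg-4 replicate 1, 0 of 311 without hrde-1 replicate 1 and 1 of 309 without hrde-1 replicate 2.

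Some called loci lay beside one another in gene order. Loci of 21U-RNAs and loci unmatched to the reference were left out of that order, so a direct neighbour can lie beyond a 21U locus. Of 440 higher loci placed in that order 87 (19.8%) had a direct neighbour called higher, against 259 of the 5940 tested loci placed in it (4.36%). Of 545 lower loci 89 (16.3%) had a direct neighbour called lower, against 502 of the 5940 (8.45%). No test was made of these shares. The longest run was 6 lower loci on chromosome II, F52C6.14, ZK250.13, ZK250.14, math-48, ZK250.2 and math-49, around genes of the MATH domain family. At math-49 the levels were 20.6 and 30.7 RPM in meg-3 meg-4, 234 and 205 in the triple mutant, against 218 and 284 in hrde-1 (−3.25, SE 0.35). A run of 5 on chromosome V joined the chemoreceptor genes srg-66 (−4.17) and srg-65 (−4.98) with grl-18, a hedgehog-related gene (−5.57), T05C3.6 and T05C3.2. On X, M163.12 to M163.15 formed a run of 4 rises. M163.13 there had 53.2 and 335 RPM in meg-3 meg-4 and 18.3 and 28.3 in hrde-1 (2.50, SE 0.64), and its call ended without hrde-1 replicate 1 (2.40) and when libraries were scaled to totals (2.32) or miRNA reads (1.60). It was 3.92 without meg-3 meg-4 replicate 1 and 1.19 without replicate 2.

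Neighbours also went opposite ways. Y61A9LA.12 rose beside Y61A9LA.7, with 113 and 138 RPM in meg-3 meg-4, 15.5 and 11.7 in the triple mutant, against 11.8 and 15.2 in hrde-1 (3.13, SE 0.32). Y61A9LA.4, on the other side, fell (−1.81, SE 0.37). Of the called loci 191 of the higher and 303 of the lower overlap another annotated gene. The share over all tested loci was not counted, so these counts do not show whether called loci overlap more often. Reads there may belong to the partner because the strand setting of the counting is not given in the sources used here. Among loci named above, bbs-5, T25D3.3, linc-22, K02E2.6, W04B5.1 and mir-82 overlap a gene on the same strand. B0564.2, ads-1, col-121, col-111, sma-2, vit-2, nos-2, unc-87, F15D4.5, arl-13, ift-20, C41A3.1 and cdh-9 overlap one on the opposite strand. Members of near-identical families such as the F-box, MATH, collagen and vitellogenin genes can share reads and are uncertain for the same reason.

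The mean level of the triple mutant, which carries the alleles of both strains, lay between the means of both strains at 318 of 454 higher loci, above both at 76 and below both at 60. At the 607 lower loci it lay between them at 430, above both at 90 and below both at 87. These loci were picked because meg-3 meg-4 and hrde-1 lay apart there. The triple mutant can therefore fall between them by that choice alone. Its place over all tested loci was not counted, so these counts do not show the triple mutant to be intermediate. The median levels that follow have the same limit. Among higher loci the median level was 80.7 RPM in meg-3 meg-4, 36.6 in the triple mutant, against 19.5 in hrde-1, and among lower loci 12.2, 26.4 and 94.8 RPM in that order of strains. Summed levels, which weigh abundant loci more, went otherwise. Over the higher loci they were 380173 and 419348 RPM in meg-3 meg-4, 435389 and 339890 in the triple mutant, against 146380 and 184568 in hrde-1, so that the triple mutant overlapped meg-3 meg-4. Over the lower loci they were 37699 and 43836 RPM in meg-3 meg-4, 135226 and 132848 in the triple mutant, against 141557 and 201547 in hrde-1, so that the triple mutant stood near hrde-1. The authors' deposited table for the triple mutant against N2 shares no library with the comparison of meg-3 meg-4 and hrde-1, although the triple mutant entered the estimate of spread. It called 15.7% of tested loci higher and 11.9% lower. Of 453 rises with an adjusted p in the authors' deposited table, 134 (29.6%) were higher and 137 (30.2%) lower in the triple mutant than in N2. Those are 13.2% and 17.8% of the authors' calls in each direction. Of 603 falls, 201 (33.3%) were higher and 150 (24.9%) lower in the authors' deposited table, which are 19.8% and 19.5% of its calls. Both sets held more calls in both directions than the loci tested at large, and no test was made of this.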

How the data were processed

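The authors deposited tables of small RNA signal per locus. The submitters' processing notes name the build ce10 and the tools DESeq2, HTSeq, Bowtie2 and cutadapt. Tool versions, strand setting and treatment of reads with several matches are not given in the sources used here. The deposited signal values are counts divided by a size factor: each column divided by its smallest value above 0 gave whole reads for 100% of values (tolerance 0.001 reads). The log2 fold changes and adjusted p-values against N2 are the authors' own, as deposited. 6 library columns (4 of N2, 2 repeating the triple mutant) and 6 columns of means were not used.

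Recovered reads of 6 libraries were joined by locus and scaled with TMM (edgeR 4.0.16). Because the deposited unit is not a count, limma 3.58.1 with an intensity trend (R 4.3.3) was fitted to log2(RPM + 1) with 3 strains of 2 libraries each, at loci with a mean of at least 10 RPM, with Benjamini-Hochberg adjustment over all tested loci. The estimate of spread includes the triple mutant. edgeR and DESeq2 1.42.0 on the recovered reads were alternatives. The fit was also run on simulated reads from independent libraries with the same spread at every locus. No pairing of libraries and no shift in the miRNA share of reads was built into them, so they say nothing on either. Floors are 3 reads per library and cover counting error only, since reads carry no molecular identifiers. The smallest library of the series held 2384147 reads.

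Members, lists and tests were chosen with earlier results of these data known, and several lists were written from memory. 32 lists were counted: 31 drawn up at the start and the cilium list, added later. Named loci are the mutated and title genes, the 12 largest rises and falls of at least 50 RPM whose groups do not overlap, their called neighbours, and up to 5 called members per list, or the 2 of highest level where none was called. Those outside this rule are said to be named after their values were seen. Over all tested loci 7.02% were higher and 9.38% lower, beside which the list counts can be read. The remaining lists gave, as higher and lower of the number tested, F-box genes 13 and 9 of 70, BATH and MATH genes 6 and 8 of 39, ribosomal protein genes 3 and 0 of 62, histone genes 3 and 0 of 21, nuclear hormone receptors 2 and 4 of 25, cytochrome P450 and glucuronosyltransferase genes 2 and 3 of 11, C-type lectins 2 and 1 of 6, hedgehog-related genes 0 and 2 of 6, neuropeptides 0 and 2 of 5, neuronal genes 0 and 2 of 4 and major sperm protein genes 0 and 0 of 1. The reference (WBcel235) served for names, classes, chromosomes and gene order, with no coordinates, since its build differs from that of the files.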

Additional observations from a re-analysis of the deposited data

How the results depend on the processing

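Scaling to miRNA reads, which moved the median of all loci, gave 168 higher and 2897 lower loci. There were 30 rises on X, 5 at ERGO-1 targets and 4 at miRNAs, and 377 falls at 21U loci. The low miRNA count follows from this scaling, which holds the summed miRNA level equal. A minimum mean of 1 RPM gave 796 higher loci, 174 of them on X and 15 at miRNAs, and falls at 10 collagens and 17 cilium genes. With no filter there were 700 rises, 148 on X and 10 at miRNAs, and 11 falls at collagens. A minimum of 50 RPM, which tests fewer loci, gave 259 rises and 307 falls, with 36 rises on X and 12 falls at 21U loci. DESeq2 size factors gave 44 miRNA rises and the DESeq2 test 25 falls at 21U loci. The causes of the other shifts were not tested. Limma with a replicate block gave 553 higher and 698 lower loci and 48 rises at miRNAs. Whether the shared replicate numbers pair these samples cannot be told, since the labels do not say if they mark shared cultures. Deviations of same-numbered libraries correlated at 0.555 for meg-3 meg-4 with hrde-1. They correlated at −0.185 for the triple mutant with hrde-1 and −0.112 for meg-3 meg-4 with the triple mutant. The main fit takes no account of such pairing.

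Leaving out 1 library at a time gave 345 to 639 higher and 410 to 735 lower loci, 13 to 61 rises at miRNAs and 6 to 50 falls at 21U loci. Rises were fewest without hrde-1 replicate 1 and most frequent without meg-3 meg-4 replicate 1, and falls fewest without hrde-1 replicate 2 and most frequent without the second meg-3 meg-4 library. These fits leave 1 strain with 1 library, assumed to vary like the others. Of 134 called named loci, 103 were called the same way under every alternative that tested them and 0 changed direction, while 45 were not tested under some alternative. Sign changes were seen at loci with no call. Scaling to miRNA reads gave −0.68 at hrde-1, −0.88 at C14B1.7, −0.65 at parn-1, −0.011 at spe-41 and −0.89 at mir-39. Scaling to totals gave −0.15 at C14B1.7 and −0.15 at mir-39. The DESeq2 test gave 0.074 at chk-2 and 0.19 at mir-35, and edgeR 0.0090 at mir-35. With 1 library left out, values ranged from −0.38 to 0.27 at htp-1, −0.25 to 0.37 at chk-2, −0.64 to 0.10 at cbd-1, −0.35 to 0.26 at spe-39, −0.90 to 0.66 at mir-35 and −0.69 to 0.87 at mir-39. With 2 libraries a strain, a locus without a call is not shown to be unchanged.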
